A study of Homo sapiens with 60 samples.

Results

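HCC827 cells that had survived 21 days of osimertinib still differed from untreated cells after 96 h without the drug. HCC827 is an established lung adenocarcinoma cell line that depends on a mutant, amplified EGFR, and osimertinib is an inhibitor that binds the mutant receptor. The comparison took 6 of the 60 RNA-seq libraries of the series, 3 after the long washout and 3 of the DMSO control. Its members are the genes that had not returned to the untreated level, taken as genes whose counts differed between these libraries at an adjusted p under 0.05. Of 19712 genes in the table, 13842 had enough counts to be tested and 5491 were called (39.7%), 2730 of them higher after the washout (19.7%) and 2761 lower (19.9%).

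The long washout cells received 500 nM osimertinib for 21 days, were rinsed and then grew in medium without drug for 4 days. The study set that time by when exponential growth had resumed. The DMSO cells were parental HCC827 cells that grew for the same 21 days without drug and then received the solvent for 24 h. The series also holds acute osimertinib (the same dose for 24 h on parental cells), cells harvested on day 21 in the drug, which are called drug-tolerant persisters (DTPs), and a short washout of 24 h, with 3 replicates each, and the same 5 arms in the EGFR-mutant lines PC9, H1975 and HCC2935. The replicates are described as biological triplicates with no further detail, so that the p-values measure the spread between these cultures. All cells of a line come from 1 line, and the survivors of 21 days can be a subset of the cells that were plated. In bulk RNA, fewer cells of a type and less RNA per cell cannot be told apart.

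EGFR signals through RAS and ERK, which drive transcription of immediate early genes, of negative feedback genes such as the DUSP phosphatases and of the G1 cyclins. Blocking it stops the cell cycle and lowers glycolysis in EGFR-dependent cells, and the cells that survive can lean on other receptor kinases, or shift from an epithelial to a mesenchymal state. Several gene groups in the comparison are known to be controlled through short promoter elements. Interferon-stimulated genes carry an interferon-stimulated response element, mitotic genes a cell cycle genes homology region and CCAAT boxes, sterol genes CCAAT boxes beside sterol elements, and glycolytic genes a hypoxia response element.

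Promoter sequences of 6 genes of these groups are shown because the groups moved as blocks. They come from RefSeq (GRCh38.p14), read in the direction of the gene from 250 bases before a start and ended where an exon of either strand begins in GENCODE release 29. For each gene the first window with a match before an exon is shown, so that the windows were chosen for the match. RSAD2 and IFI27 had 2 windows each. The windows of RSAD2, IFI27 and PGK1 lie inside the GENCODE spans of these genes. Capitals mark the letters searched for on both strands, which are the core of the interferon-stimulated response element (GAAA, any 2 bases and GAAA again) in RSAD2 and IFI27, TTTGAA in DLGAP5, TTTGAA and CCAAT in MKI67, CCAAT in INSIG1 and ACGTG in PGK1. In MKI67 the last TTTGAA shares bases with a CCAAT on the other strand. RSAD2 (chr2:6877527-6877664, plus strand) and IFI27 (chr14:94110486-94110677, plus strand) are interferon-stimulated genes and rose. DLGAP5 (chr14:55191679-55191835, minus strand) and MKI67 (chr10:128126424-128126673, minus strand) are genes of dividing cells and fell. INSIG1 (chr7:155297628-155297775, plus strand), a sterol sensor's partner, and PGK1 (chrX:78103998-78104173, plus strand), a glycolytic enzyme, fell too.
RSAD2: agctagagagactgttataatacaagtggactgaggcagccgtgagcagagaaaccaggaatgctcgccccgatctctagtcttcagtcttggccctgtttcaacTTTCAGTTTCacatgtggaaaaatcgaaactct
IFI27: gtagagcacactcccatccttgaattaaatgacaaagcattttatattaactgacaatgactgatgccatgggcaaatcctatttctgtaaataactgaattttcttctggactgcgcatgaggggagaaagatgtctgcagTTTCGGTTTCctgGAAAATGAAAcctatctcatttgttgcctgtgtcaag
DLGAP5: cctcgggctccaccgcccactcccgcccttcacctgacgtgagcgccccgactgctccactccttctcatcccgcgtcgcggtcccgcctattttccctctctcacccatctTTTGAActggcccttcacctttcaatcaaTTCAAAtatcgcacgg
MKI67: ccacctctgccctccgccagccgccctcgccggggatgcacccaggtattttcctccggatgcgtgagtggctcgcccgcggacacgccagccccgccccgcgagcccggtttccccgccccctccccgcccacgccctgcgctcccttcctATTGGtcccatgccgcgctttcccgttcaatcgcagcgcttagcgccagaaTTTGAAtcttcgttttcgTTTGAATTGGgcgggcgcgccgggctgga
INSIG1: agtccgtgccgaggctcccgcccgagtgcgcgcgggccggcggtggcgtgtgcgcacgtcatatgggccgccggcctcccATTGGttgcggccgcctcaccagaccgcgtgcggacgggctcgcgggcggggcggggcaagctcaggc
PGK1: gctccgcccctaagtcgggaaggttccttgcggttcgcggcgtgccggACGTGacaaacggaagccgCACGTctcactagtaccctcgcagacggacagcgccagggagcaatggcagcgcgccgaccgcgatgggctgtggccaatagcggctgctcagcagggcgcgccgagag

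Over all 27305 gene symbols with a RefSeq promoter, the interferon-stimulated response element core stood in 3.71% of the windows of 250 bases, and it stood in 20 of 27 interferon-stimulated genes that had a window, of 36 listed. TTTGAA stood in 11 of 20 mitotic genes with a window, of 25 listed, against 16.05% of all these symbols. CCAAT stood in 16 of 20 mitotic genes, in 14 of 21 DNA replication genes and in 16 of 18 cholesterol genes, against 37.0% of all. The sterol element of the LDL receptor gene was searched for as well, and stood in 1 of 18 cholesterol genes, against 0.04% of all. ACGTG stood in 15 of 24 glycolytic and hypoxia genes, against 21.74% of all. It also stood in 8 of 20 mitotic, 6 of 21 DNA replication, 4 of 18 cholesterol and 5 of 27 interferon-stimulated genes. The lists were drawn up from textbook knowledge, in which such elements are part of what is known of these genes, and a match of letters does not show that a factor bound there.

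The 6 libraries held between 18.39 and 22.53 M estimated counts, with the DMSO libraries at 19.69 M or more and the long washout libraries at 18.62 M or fewer. Median squared differences between replicates were 6.61 to 21.2 times those of counting error over the 15 pairs of replicates in the 5 HCC827 arms. Long washout replicate 3 stood apart: 179 of the called genes lay more than 2-fold from both other long washout libraries in it, against 31 in replicate 1 and 46 in replicate 2. Without it, 5311 genes were called. Its deviations from the group mean over 14665 genes correlated at 0.409 with those of DTP replicate 1 and at 0.432 with those of short washout replicate 1. The epithelial markers EPCAM, CDH1, KRT7, KRT8, KRT18, KRT19 and EGFR were expressed in every library, with a summed level of 17499 to 21470 CPM, the count scaled to a common library total, in DMSO and 10127 to 10599 CPM after the washout. Of 6 fibroblast markers, COL1A1, COL3A1, LUM and PDGFRB rose and COL1A2 and DCN had too few counts to be tested, with sums of 13.4 to 25.7 CPM in DMSO and 86.9 to 136 CPM after the washout. Of 4 endothelial markers VWF and KDR rose, with sums of 0.995 to 2.12 CPM and 2.06 to 5.11 CPM. Of 5 leukocyte markers CD68 rose (log2 fold change 0.63, adjusted p = 0.00832), the others had too few counts to be tested, and CD3E and MS4A1 were at 0 in all 6 libraries. The 3 haemoglobin genes were at 0 in all 6 as well. The 13 mitochondrial transcripts took 4.86% to 7.24% of the counts in DMSO and 7.81% to 9.18% after the washout, and their part in the results was not tested.

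Rises reached further than falls. Among the 5491 genes the median absolute log2 fold change was 0.82, and 2203 genes changed at least 2-fold, 1569 of them higher (11.3% of the genes tested) and 634 lower (4.58%). At least 8-fold, 371 genes were higher and 2 were lower. The values of the 3 long washout and the 3 DMSO libraries did not overlap in 5414 of the called genes and in 7300 of all genes tested (52.7%). The gene nearest to the threshold inside it was LRRC14, with a log2 fold change of -0.44 (adjusted p = 0.0498), and the gene nearest outside it was DUSP12, at -0.40 (adjusted p = 0.050). In the values that follow, a level is CPM after TMM normalization over the 15 HCC827 libraries, a group value is a mean ± SD of 3 replicates, and a log2 fold change is long washout over DMSO from edgeR with its standard error (SE).

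**Figure D1:**
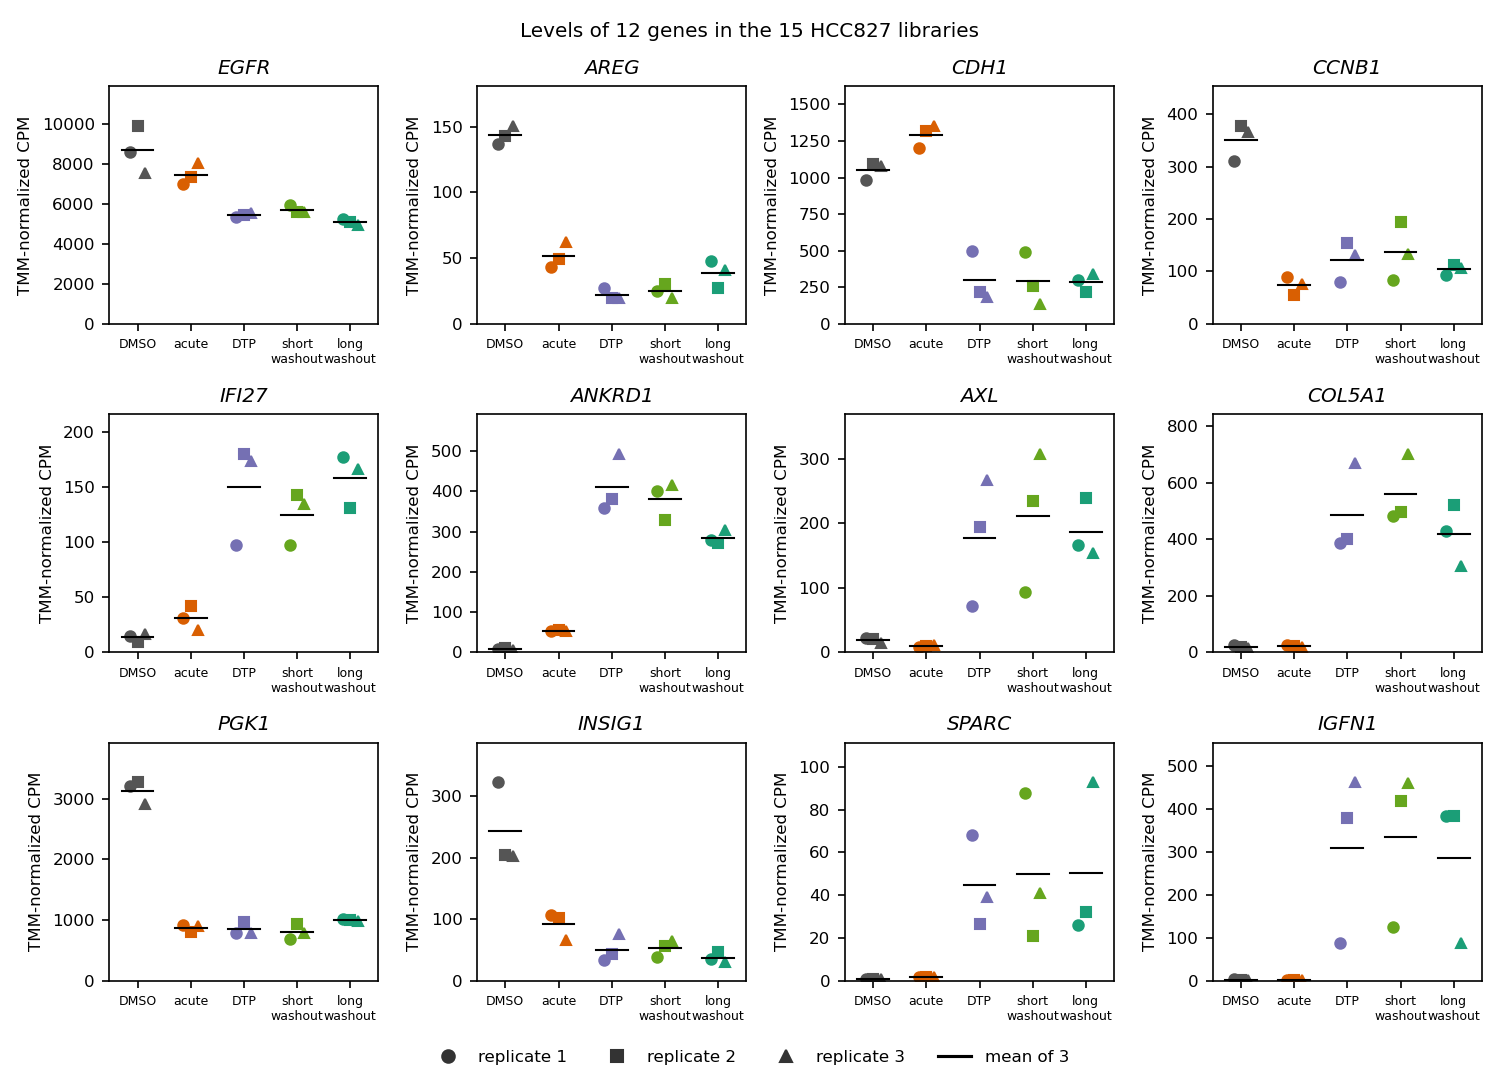
Levels in CPM (linear axis) of 12 genes in the 15 HCC827 libraries, with the marker shape giving the replicate and a bar giving the mean of the 3 replicates of DMSO, acute osimertinib, DTP, short washout and long washout. EGFR, AREG, CDH1, CCNB1, PGK1 and INSIG1 sit below every DMSO library after the long washout, IFI27, ANKRD1, AXL, COL5A1, SPARC and IGFN1 sit above, and long washout replicate 3 of SPARC, at 92.7 CPM, stands far from the other two.

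The receptor under treatment stayed low. EGFR (chromosome 7, 55019021 to 55211628) was at 8598, 9933 and 7582 CPM in the DMSO libraries and at 5233, 5114 and 4964 CPM after the long washout. The groups did not overlap, and the log2 fold change was -0.78 (SE 0.10, adjusted p = 0.000424). EGFR overlaps EGFR-AS1 on the opposite strand, and nothing says that strand was used to separate their reads. ERBB3, the kinase-poor partner that couples the family to PI3K, was at 97.0, 90.9 and 124 CPM in DMSO and at 66.4, 49.7 and 53.5 CPM after the washout (log2 fold change -0.89, SE 0.16, adjusted p = 0.00199, and 0.0638 with all 15 HCC827 libraries in the fit). In acute osimertinib it had stood at 234 ± 36.9 CPM, on the other side of DMSO. Of the receptor's inhibitors, ERRFI1 fell (-1.24, SE 0.14, adjusted p = 0.000191) and LRIG1 rose from 1.4 ± 0.623 to 4.8 ± 0.264 CPM (1.77, SE 0.39, adjusted p = 0.00610). Of 8 tested receptors and inhibitors of the family, 1 was called higher (12.5%) and 3 lower (37.5%). Over all genes tested, 19.7% were higher and 19.9% lower.

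Ligands of the family split into 5 that fell (62.5%) and 1 that rose (12.5%), of 8 tested, where 19.9% and 19.7% of all genes tested did. Their median log2 fold change was -1.45, and that of all genes tested was -0.01. AREG, the most studied autocrine ligand of this receptor in lung cancer, was at 137, 143 and 151 CPM in DMSO and at 47.4, 27.1 and 40.6 CPM after the washout (-1.91, SE 0.19, adjusted p = 8.38e-05). EREG fell from 315 ± 14.2 to 97.1 ± 10.2 CPM (-1.71, SE 0.11) and BTC from 33.3 ± 3.58 to 10.2 ± 1.46 CPM (-1.72, SE 0.17), and no library of one group reached into the other. HBEGF, the heparin-binding ligand, went the other way, from 5.28, 13.3 and 4.03 CPM to 50, 65.7 and 52.9 CPM (2.89, SE 0.38, adjusted p = 0.000445, and 3.60 without DMSO replicate 2).

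Genes that report ERK activity were called after the washout at shares near those of all genes. Of 21 tested, 3 were called higher (14.3%) and 6 lower (28.6%), with a median of -0.21. Over all genes tested, 19.7% were higher and 19.9% lower. Under acute osimertinib 16 of the list were lower, with a median of -1.46, where 22.1% of all genes tested were lower and 20.2% higher. Without long washout replicate 2, 5 of the 21 were called. FOSL1, an AP-1 subunit, fell from 355, 518 and 293 CPM to 118, 129 and 173 CPM (-1.48, SE 0.22, adjusted p = 0.000797), after a mean of 39.1 ± 13.8 CPM in acute osimertinib. ETV4, an ETS factor, fell from 25.2 ± 3.76 to 12.8 ± 3.48 CPM (-0.99, SE 0.22, adjusted p = 0.00707). The feedback phosphatase DUSP6 was at 17.4, 21.2 and 21.4 CPM in DMSO and at 36.3, 29 and 24.9 CPM after the washout (0.57, SE 0.17, adjusted p = 0.0257). The call rested on single libraries, with 0.44 (adjusted p = 0.109) without long washout replicate 1, 0.62 (adjusted p = 0.0528) without replicate 2 and 0.48 (adjusted p = 0.0966) without DMSO replicate 1. It was also lost with all 15 HCC827 libraries in the edgeR fit (0.59, adjusted p = 0.376) and with all 60 libraries (0.56, adjusted p = 0.381). In acute osimertinib DUSP6 had been at 1.87 ± 1.58 CPM (-3.40, adjusted p = 0.000442), on the other side of DMSO. DUSP4, another feedback phosphatase, was also higher (1.00, SE 0.18, adjusted p = 0.00243), as was EPHA4, an ephrin receptor (2.60, SE 0.33, adjusted p = 0.000348). CCND1, the G1 cyclin D1, was at 388 ± 118 CPM in DMSO and 297 ± 84.7 CPM after the washout, a difference of -0.39 (95% interval -0.95 to 0.17, adjusted p = 0.242).

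Of 13 tested receptor kinases that can replace EGFR, 7 were higher (53.8%), 1 was lower (7.69%) and 5 were not called, with a median of 0.55. The shares of all genes tested were 19.7% higher and 19.9% lower. AXL (chromosome 19, 41219203 to 41261766), the GAS6 receptor, was at 21.9, 20.4 and 14.8 CPM in DMSO and at 166, 239 and 154 CPM after the washout (3.28, SE 0.21, adjusted p = 1.3e-05). All 3 washout libraries were far above DMSO, whereas acute osimertinib had lowered AXL to 9.65 ± 1.08 CPM (-0.98, adjusted p = 0.00287). KIT, the stem cell factor receptor, had 3 counts over the 3 DMSO libraries and 580 over the 3 long washout libraries, at 11.9, 13.7 and 5.42 CPM. The ratio was 214, with a 95% counting interval of 72.9 to 1042 that leaves the spread between replicates out, and the fitted log2 fold change went from 7.55 to 8.43 without DMSO replicate 1. PDGFRB rose from 0.0640 ± 0.0269 to 2.19 ± 0.584 CPM (4.95, SE 0.60) and the insulin receptor INSR from 13.2 ± 3.81 to 45.9 ± 4.71 CPM (1.79, SE 0.22). MET was at 1124, 1064 and 1034 CPM in DMSO and at 1253, 947 and 1136 CPM after the washout. The MET groups overlapped, and the difference of 0.04 had a 95% interval of -0.22 to 0.29 and was -0.04 without long washout replicate 1.

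Genes of cell division were low in all long washout libraries, although the harvest was timed to resumed exponential growth. All 25 genes of the mitosis list were called lower, with log2 fold changes from -1.77 to -1.09 and a median of -1.47. In each of them the groups did not overlap, which held for 52.7% of all genes tested. Of 25 DNA replication genes 22 were lower (88%), with a median of -1.01, where 19.9% of all genes tested were lower. CCNB1 (chromosome 5, 69167010 to 69178245), the cyclin that opens mitosis, was at 311, 378 and 366 CPM in DMSO and at 92.8, 113 and 106 CPM after the washout (-1.77, SE 0.12, adjusted p = 1.8e-05). DLGAP5, a spindle protein whose promoter is shown above, fell from 154 ± 12.6 to 49.4 ± 6.05 CPM, with no overlap (-1.65, SE 0.12). MKI67, the proliferation marker Ki-67, fell from 443, 524 and 491 CPM to 165, 186 and 173 CPM (-1.49, SE 0.10, adjusted p = 2.03e-05). CCNA2, the S and G2 cyclin, and BUB1, a checkpoint kinase, fell by 1.65 and 1.61 on the log2 scale. On the replication side, GINS2 of the replicative helicase fell from 35.0 ± 3.53 to 11.0 ± 1.64 CPM and RRM2, the ribonucleotide reductase subunit, from 219 ± 48.5 to 69.7 ± 10.6 CPM, by 1.68 and 1.66 on the log2 scale. E2F8, a repressor of E2F genes, and MCM10, a replication origin factor, fell by 1.53 each. The summed level of 60 histone genes went the other way, from 85.0 to 99.7 CPM in DMSO to 169 to 200 CPM after the washout, in libraries made from poly(A) RNA.

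Of 12 CDK inhibitors and G1 cyclins, 1 was called higher and 1 lower (8.33% each). Over all genes tested, 19.7% were higher and 19.9% lower. Calls in the list numbered 1 without long washout replicate 1, without replicate 2 or without DMSO replicate 1, and 4 without DMSO replicate 2. CDKN1C, which encodes the inhibitor p57, was at 2.43, 1.75 and 2.36 CPM in DMSO and at 26.3, 32.7 and 12.6 CPM after the washout (3.43, SE 0.36, adjusted p = 0.000118). It was already at 21.3 ± 1.28 CPM in acute osimertinib. Genes of ribosome biogenesis were low as well, 13 of 25 called lower with a median of -0.48, and 7 without long washout replicate 1 or without replicate 2. They included DKC1 (-1.06, SE 0.19), the pseudouridine synthase, and NPM1, a nucleolar chaperone, at 1388 ± 153 and 865 ± 35.2 CPM (-0.69, SE 0.10).

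Epithelial genes were lower and mesenchymal genes higher. Of 20 epithelial identity genes 16 were called lower (80%), with a median of -1.26. Of 18 tested mesenchymal genes 13 were higher (72.2%) and 1 lower (5.56%), with a median of 2.49. The shares of all genes tested were 19.7% higher and 19.9% lower. CDH1 (chromosome 16, 68737225 to 68835548), which encodes E-cadherin, was at 983, 1094 and 1079 CPM in DMSO and at 302, 218 and 340 CPM after the washout (-1.89, SE 0.16, adjusted p = 4.19e-05). Acute osimertinib had raised CDH1 slightly (0.29, adjusted p = 0.0277), on the other side of DMSO. ESRP1, an epithelial splicing factor, fell from 304 ± 57.6 to 63.6 ± 17.8 CPM (-2.27, SE 0.23). OVOL2, a repressor of ZEB1, fell by 1.80 and RAB25, an epithelial vesicle GTPase, by 1.75 on the log2 scale.

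ZEB1 and ZEB2, repressors of CDH1, rose. ZEB1 was at 3.42, 6.97 and 3.53 CPM in DMSO and at 25.3, 27.7 and 27.3 CPM after the washout (2.51, SE 0.27, adjusted p = 0.000156). ZEB2 was at 1.14, 2.65 and 0.136 CPM and then at 33.8, 33.6 and 28.6 CPM (4.6, SE 0.58, adjusted p = 0.000344, and 5.70 without DMSO replicate 2). For both, the lowest washout library was several times the highest DMSO library. VIM, the intermediate filament vimentin, rose from 131, 149 and 106 CPM to 842, 958 and 740 CPM (2.71, SE 0.15, adjusted p = 8.13e-06). SPARC, a matrix protein gene, was at 0.776, 0.521 and 0.634 CPM in DMSO and at 26, 32 and 92.7 CPM after the washout (6.27, SE 0.58, and 5.46 without long washout replicate 3). That library was also the highest for the gelatinase gene MMP2, at 3.17, 4.71 and 30 CPM after the washout (4.29, SE 0.89, adjusted p = 0.00474, and 2.59 without it).

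Collagen genes rose as a group, 17 higher and 1 lower of 21 tested, with a median of 1.97. COL5A1 (chromosome 9, 134641774 to 134844843), which starts collagen fibrils, was at 23.8, 19.4 and 15 CPM in DMSO and at 428, 521 and 305 CPM after the washout (4.42, SE 0.24, adjusted p = 7.18e-06). COL3A1 rose from 0, 0.142 and 0.0453 CPM to 7.6, 5.8 and 56.8 CPM (8.38, SE 1.30, adjusted p = 0.00103, and 6.56 without long washout replicate 3, or 9.59 without DMSO replicate 2). The basement membrane chains COL4A3 and COL4A4 rose by 3.84 (SE 0.59) and 3.33 (SE 0.60), the latter by 2.62 without long washout replicate 3. Of 20 integrins and laminins 4 were higher (20%) and 5 lower (25%), near the 19.7% and 19.9% of all genes tested. ITGB3 and ITGB8, the integrin chains that bind latent TGF-beta and vitronectin among other ligands, rose by 3.10 and 3.07, whereas the laminin chain LAMB3 fell by 1.48 on the log2 scale. The levels of the fibroblast markers given above moved with these groups, and their part in the result was not tested.

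**Figure D2:**
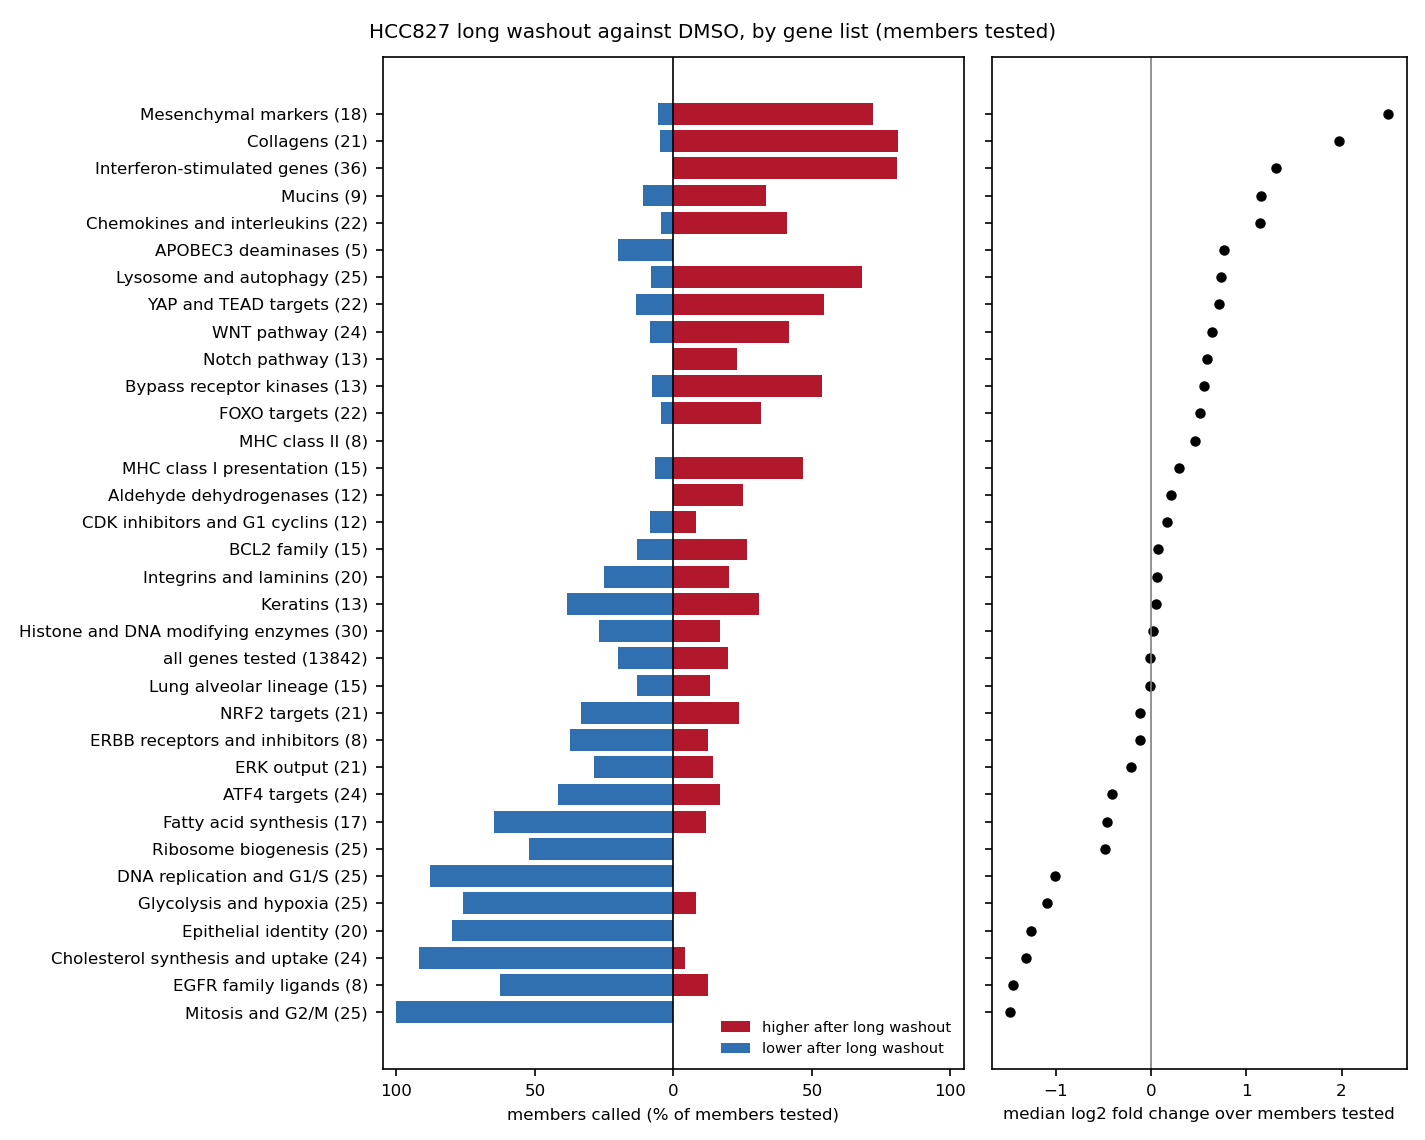
Left, the percentage of tested members called higher or lower after the long washout for each of 33 gene lists and for all genes tested, and right, the median log2 fold change of the tested members. Mitosis is the list with every tested member lower (100% of 25), interferon-stimulated genes the list with the most members higher in number (29 of 36), against 19.7% higher and 19.9% lower over all 13842 genes.

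YAP and TEAD targets were higher in 12 of 22 cases (54.5%) and lower in 3 (13.6%), with a median of 0.71. Among all genes tested, 19.7% were higher and 19.9% lower. ANKRD1 (chromosome 10, 90912096 to 90921276), a cardiac ankyrin repeat protein that is a standard YAP reporter, was at 6.57, 9.24 and 5.48 CPM in DMSO and at 279, 273 and 303 CPM after the washout (5.31, SE 0.19). Its adjusted p of 2.12e-06 was the smallest of all genes in the comparison. CCN2, the connective tissue growth factor, rose from 7.41 ± 5.20 to 117 ± 32.8 CPM (3.97, SE 0.42, and 4.73 without DMSO replicate 2). DLC1, a GTPase activating protein, rose by 2.90 (SE 0.35).

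Interferon-stimulated genes were higher in 29 of 36 cases (80.6%), against 19.7% of all genes tested, and their median was 1.31. IFI27 (chromosome 14, 94104836 to 94116698) was at 14.4, 9.43 and 16.7 CPM in DMSO and at 177, 131 and 166 CPM after the washout (3.53, SE 0.22, adjusted p = 1.22e-05). RSAD2, which encodes the antiviral enzyme viperin, rose from 0.0518, 0.0474 and 0.0906 CPM, 4 counts over the 3 libraries, to 5.22, 2.17 and 4.85 CPM (5.85, SE 0.62). It overlaps CMPK2 on the opposite strand. OASL, an oligoadenylate synthetase relative, rose from 0.872 ± 0.261 to 8.75 ± 5.71 CPM (3.31, SE 0.54, and 2.68 without long washout replicate 3), while its mean was 2.15 ± 1.2 CPM in the DTPs. IFITM2, a restriction factor with near-identical relatives, rose by 3.59 (SE 0.68). Of 15 MHC class I presentation genes 7 were higher (46.7%) and 1 lower (6.67%), against 19.7% and 19.9% of all genes tested. In this list 5 were called without long washout replicate 1, without replicate 2 or without DMSO replicate 2. The higher genes included HLA.E, from 69.4 ± 8.66 to 126 ± 3.17 CPM (0.84, SE 0.12), and TAP1, the peptide transporter, from 26.4 ± 0.681 to 41.7 ± 1.65 CPM (0.65, SE 0.12). The HLA genes resemble one another, and the counting could have split their reads.

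Chemokine and interleukin genes were higher in 9 of 22 cases (40.9%) and lower in 1 (4.55%), against 19.7% and 19.9% of all genes tested. CX3CL1, the membrane-bound chemokine fractalkine, rose from 8.20 ± 2.39 to 39.2 ± 7.52 CPM (2.25, SE 0.24, adjusted p = 0.000154). CCL2, the monocyte attractant, rose from 0.0977 ± 0.0949 CPM to 2.43, 3.95 and 10.6 CPM (5.78, SE 0.87, and 4.94 without long washout replicate 3, 5.19 without DMSO replicate 3 or 6.69 without DMSO replicate 2). The inflammatory cytokine gene IL1B rose by 2.59 (SE 0.52, and 3.48 without DMSO replicate 3).

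Sterol genes were among the most uniformly low. Of 24 genes of cholesterol synthesis and uptake, 22 were called lower (91.7%) and 1 higher (4.17%), with a median of -1.31. Among all genes tested, 19.9% were lower and 19.7% higher. INSIG1, the endoplasmic reticulum anchor of the sterol sensor, was at 322, 204 and 202 CPM in DMSO and at 34.7, 46.0 and 29.6 CPM after the washout (-2.74, SE 0.22, adjusted p = 3.79e-05). The sterol carrier STARD4 fell from 61.6, 36.7 and 42 CPM to 12, 11.9 and 7.79 CPM (-2.16, SE 0.24), and squalene synthase FDFT1 fell by 1.68 on the log2 scale. In these genes too the groups did not overlap.

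Of 17 fatty acid synthesis genes 11 were lower (64.7%) and 2 higher (11.8%), with a median of -0.46. Among all genes tested, 19.9% were lower and 19.7% higher. SCD, the stearoyl-CoA desaturase, fell from 2165, 1427 and 1651 CPM to 346, 291 and 231 CPM (-2.61, SE 0.19, adjusted p = 2.21e-05). The higher members were 2 other desaturase genes, SCD5 at 3.00 ± 1.15 and 10.1 ± 2.83 CPM (1.73, SE 0.34) and FADS3 at 27.2 ± 2.03 and 81.5 ± 5.02 CPM (1.57, SE 0.11). The desaturases thus moved in both directions.

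Glycolysis and hypoxia genes were lower in 19 of 25 cases (76%) and higher in 2 (8%), with a median of -1.09. Among all genes tested, 19.9% were lower and 19.7% higher. PGK1, phosphoglycerate kinase, was at 3221, 3273 and 2910 CPM in DMSO and at 1022, 1008 and 991 CPM after the washout (-1.65, SE 0.09, adjusted p = 6.51e-06). HK2, hexokinase, fell from 149 ± 31.9 to 44.7 ± 2.21 CPM (-1.74, SE 0.16) and EGLN3, an oxygen-sensing hydroxylase, from 53.8 ± 6.02 to 15.7 ± 0.345 CPM (-1.79, SE 0.13). The glucose transporter SLC2A3 rose, from 2.23, 0.948 and 2.45 CPM to 31.9, 36.3 and 13.6 CPM (3.84, SE 0.44, adjusted p = 0.000196). Lysosome and autophagy genes were higher in 17 of 25 cases (68%) and lower in 2 (8%), with a median of 0.74. Among these proteases and membrane proteins, the cathepsin CTSH rose from 37.3 ± 10.9 to 204 ± 22.7 CPM (2.44, SE 0.20), CTSA by 1.68 (SE 0.19), CTSB by 1.53 (SE 0.11) and the autophagy protein WIPI1 by 1.80 (SE 0.24).

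ATF4 targets were lower in 10 of 24 cases (41.7%) and higher in 4 (16.7%), where 19.9% of all genes tested were lower and 19.7% higher. DDIT4, an inhibitor of mTORC1, fell from 941, 534 and 641 CPM to 135, 132 and 126 CPM (-2.44, SE 0.19), whereas STC2, a secreted glycoprotein, rose from 213 ± 50.1 to 744 ± 83.0 CPM (1.79, SE 0.17). NRF2 targets were higher in 5 of 21 cases (23.8%) and lower in 7 (33.3%). Here HMOX1, haem oxygenase, rose by 1.33 (SE 0.25) and TXN, thioredoxin, fell by 1.04 (SE 0.10) on the log2 scale. FOXO targets were higher in 7 of 22 cases (31.8%) and lower in 1 (4.55%), and 13 were called without DMSO replicate 2. PIK3IP1, a PI3K inhibitor, rose from 4.32 ± 2.08 to 24.2 ± 4.18 CPM (2.48, SE 0.34) and CITED2, a CBP/p300 partner, from 33.9 ± 5.72 to 128 ± 1.09 CPM (1.91, SE 0.14). In the BCL2 family, of 15 tested, 4 were higher (26.7%) and 2 lower (13.3%). Calls numbered 3 without long washout replicate 2 or without replicate 3. The pro-apoptotic HRK (3.62, SE 0.51) and BOK (2.34, SE 0.14) led the family.

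In the WNT list, 10 of 24 were higher (41.7%) and 2 lower (8.33%), where 19.7% of all genes tested were higher and 19.9% lower. WNT5A, a ligand of the non-canonical branch, rose from 0.610 ± 0.414 to 8.28 ± 2.21 CPM (3.75, SE 0.48, and 4.44 without DMSO replicate 1), and LGR5, the R-spondin receptor, went from 0 in the DMSO libraries to 0.581, 0.542 and 4.11 CPM. Against a floor of 3 counts over the DMSO group, LGR5 was at least 36.6-fold higher, and at least 11.7-fold higher without long washout replicate 3. Of 13 Notch pathway genes 3 were higher (23.1%, near the share of all genes tested). They were HEYL (3.25, SE 0.56, and 3.94 without DMSO replicate 1), LFNG (1.77, SE 0.25) and JAG1 (0.78, SE 0.19). Among 30 histone and DNA modifying enzymes 5 were higher (16.7%) and 8 lower (26.7%), also near the shares of all genes tested. EZH2, the H3K27 methyltransferase, fell from 64.3 ± 2.64 to 30.0 ± 3.29 CPM (-1.11, SE 0.12) and DNMT1, the maintenance DNA methyltransferase, by 1.04 (SE 0.12), and HDAC5 and the demethylase KDM6B rose by 1.25 (SE 0.22) and 1.02 (SE 0.15). APOBEC3B, a cytidine deaminase, fell from 26.5 ± 8.43 to 9.35 ± 1.77 CPM (-1.52, SE 0.25).

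Of 12 aldehyde dehydrogenases 3 were higher (25%, against 19.7% of all genes tested), and 5 were called without DMSO replicate 2. ALDH1A1, used as a marker of drug-tolerant cells, went from 0, 0.142 and 0.0453 CPM, 4 counts in all, to 16.3, 12.9 and 6.64 CPM (7.40, SE 0.64, adjusted p = 4.81e-05, and 8.62 without DMSO replicate 2). In the DTPs its mean was 3.14 ± 1.16 CPM, and the difference between long washout and DTPs of 1.93 (unadjusted 95% interval 1.01 to 2.86) did not pass the threshold over all genes. Of 13 keratins 4 were higher (30.8%) and 5 lower (38.5%). KRT4 rose from 1.36 ± 0.420 to 13.7 ± 2.36 CPM (3.31, SE 0.30). KRT17 rose from 0.579 ± 0.443 to 16.3, 13.1 and 50.8 CPM (5.54, SE 0.68, and 4.66 without long washout replicate 3, or 6.32 without DMSO replicate 1). KRT20, an intestinal keratin, was at 11.8, 4.23 and 0.685 CPM after the washout, a spread that exceeded its lowest value many times (5.99, SE 1.10, and 4.83 without long washout replicate 1, or 6.71 without DMSO replicate 1). Of 15 lung alveolar lineage genes 2 were higher and 2 lower (13.3% each), and 2 were called in all without DMSO replicate 1. Over all genes tested, 19.7% were higher and 19.9% lower. The surfactant transporter ABCA3 changed by 1.89 (SE 0.11) and the caveola protein CAV1 by -1.17 (SE 0.11).

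The furthest changes included genes that DMSO cells did not express at this depth. In 22 called genes the 3 DMSO libraries held 0 counts. These were all of the genes tested without DMSO counts. Such a gene could be kept for testing only through its long washout counts, so that its call was largely set by the filter. PLPP4 (chromosome 10, 120456954 to 120589855), a lipid phosphatase, went from 0 to 7.07, 9.43 and 4.90 CPM and was at least 148-fold higher. GLIS1, a zinc finger factor, was at least 110-fold higher, at 6.12, 8.45 and 1.42 CPM, and MXRA5, a matrix protein, at least 106-fold higher, at 2.85, 1.90 and 10.4 CPM. CNRIP1, a cannabinoid receptor interactor, was at least 82-fold higher, and the dopamine receptor gene DRD2 at least 49.5-fold higher, at 1.00, 0.650 and 5.42 CPM. Without long washout replicate 3 the bounds were 49.6-fold for MXRA5 and 17.3-fold for DRD2. They were 125-fold for PLPP4 and 78.5-fold for GLIS1 without replicate 2, and 61.2-fold for CNRIP1 without replicate 1. IGFBP5 (chromosome 2, 216672105 to 216695525), an IGF binding protein, rose from 0, 0.0948 and 0.136 CPM to 48.2, 39.5 and 114 CPM (9.60, SE 0.68, adjusted p = 2.04e-05, and 8.97 without long washout replicate 3 or 10.22 without DMSO replicate 3). All 3 washout libraries held counts of these genes, with GLIS1 lowest and MXRA5, DRD2 and IGFBP5 highest in replicate 3.

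At the other end stood FGFBP1 (chromosome 4, 15935569 to 15938740), a carrier that releases FGFs from the matrix. It was at 23.4, 21.6 and 18.2 CPM in DMSO and at 3.06, 1.63 and 1.37 CPM after the washout (-3.39, SE 0.30, adjusted p = 5.52e-05). LIPG, endothelial lipase, fell from 39.5 ± 7.88 to 5.53 ± 1.38 CPM (-2.85, SE 0.23), PDLIM2, an adaptor at the actin cytoskeleton, from 31.6 ± 6.33 to 4.67 ± 0.551 CPM (-2.77, SE 0.20) and PTGS1, cyclooxygenase 1, from 55.3 ± 9.91 to 10.0 ± 2.46 CPM (-2.48, SE 0.21). FGFBP1 was also low in acute osimertinib, at 1.37 ± 0.511 CPM (-3.93, adjusted p = 1.09e-05), and PTGS1 was at 3.93 ± 2.40 CPM in the DTPs.

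Compared with the DTPs themselves, no gene passed the threshold after 96 h without drug. Of 14053 genes tested, edgeR called 0 (434 at an unadjusted p under 0.05, smallest adjusted p 0.806), DESeq2 called 7, and edgeR called 3 without DTP replicate 2. For 56.5% of these genes the 95% interval of the difference lay within a 1.5-fold change. The short washout against the DTPs gave 0 of 14009 genes with edgeR (197 at an unadjusted p under 0.05), and 2 with the replicate number as a block, and 56% of intervals within a 1.5-fold change. A miss of the threshold does not show that the arms were alike. Some genes, chosen after their values were seen, had wide or shifted differences. DUSP6 was at 15.8 ± 9.29 CPM in the DTPs and 30.1 ± 5.75 CPM after the long washout (0.93, 95% interval 0.10 to 1.77), MET at 745 ± 200 and 1112 ± 154 CPM (0.58, 0.14 to 1.02), and DDIT4 at 84.0 ± 5.75 and 131 ± 4.61 CPM (0.64, 0.43 to 0.86). ANKRD1 was at 411 ± 71.7 CPM in the DTPs and 285 ± 16.2 CPM after the washout (-0.53, -0.82 to -0.23). These unadjusted intervals leave out 0, and the 4 genes did not pass the test over all genes. Correlations of log2 CPM between single libraries ran from 0.974 to 0.989 for long washout with DTPs, from 0.980 to 0.990 among long washout libraries and from 0.932 to 0.949 for long washout with DMSO, each over the same genes in libraries of similar depth.

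Set against the same DMSO libraries, each arm had its own count of called genes, and because they share these controls the values are given side by side only. The DTPs differed from DMSO in 5104 of 13919 genes (36.7%), acute osimertinib in 5817 of 13746 (42.3%) and the short washout in 4976 of 13887 (35.8%). The median of the mitosis list was -2.27 in acute osimertinib, -1.36 in the DTPs, -1.09 after the short washout and -1.47 after the long washout. That of the epithelial list was 0.32 in acute osimertinib and -1.26 in both the DTPs and the long washout. That of the collagens was 0.25, 2.09, 2.18 and 1.97 in the same order, and that of the interferon-stimulated genes 0.83, 0.92, 0.73 and 1.31. In the acute arm 10 of 20 epithelial genes were higher and 1 lower, the other direction from the washout, and 6 of 19 collagens were higher and 0 lower, where 20.2% of all genes tested were higher. The median of the glycolysis and hypoxia list was -1.18 there.

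**Figure D3:**
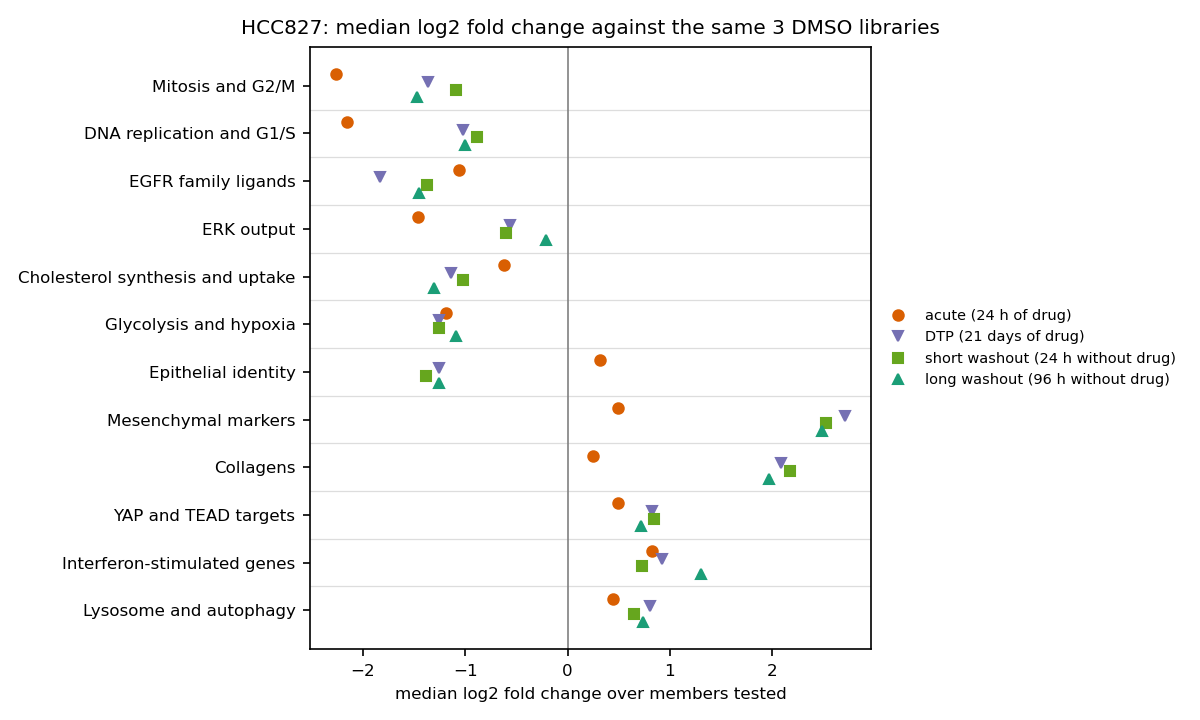
Median log2 fold change over DMSO of the tested members of 12 gene lists in acute osimertinib, DTP, short washout and long washout HCC827 cells, all against the same 3 DMSO libraries. The 3 arms after 21 days of drug lie close together for most lists, while acute osimertinib lies apart for the epithelial list (0.32), the mesenchymal list (0.49), the collagens (0.25) and ERK output (-1.46).

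The other lines were harvested after other times, 7 days of washout in PC9, 3 in H1975 and 10 in HCC2935, so that line and time cannot be told apart. Long washout differed from DMSO in 4278 of 13980 genes in PC9 (30.6%), in 8087 of 14698 in H1975 (55.0%) and in 5663 of 14199 in HCC2935 (39.9%). The PC9 count depended on single libraries, and was 1364 without DMSO replicate 3, 1935 without DMSO replicate 1, 2338 without DMSO replicate 2 and 2348 without long washout replicate 1. Of the 634 genes lower at least 2-fold in HCC827, 610 were tested in H1975 and 80.3% of them were lower there (background 28.2%), against 23.4% in PC9 (background 14.7%) and 39.2% in HCC2935 (background 18.9%). Of the 1569 genes higher at least 2-fold, 59.2% of those tested were higher in H1975 (background 26.8%), 41.9% in PC9 (background 15.9%) and 47.5% in HCC2935 (background 21.0%).

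Members of the lists were compared between the lines by a test of the difference for each gene. No list was tested as a whole. All 25 mitotic genes were lower in H1975, 8 in PC9 and 6 in HCC2935. In 22 of 25 the change was more negative in HCC827 than in PC9, and in 22 than in HCC2935 (9.28% and 13.9% of all genes tested), whereas in 9 it was less negative than in H1975 (14.3%). Over all genes tested, 18.8% differed between HCC827 and PC9 in either direction, with 9.51% more positive in HCC827, 23.8% between HCC827 and H1975 and 27.6% between HCC827 and HCC2935. For the epithelial list the change was more negative in HCC827 for 18 of 20 genes against PC9 and for 13 against HCC2935, and less negative for 8 against H1975. In PC9 6 epithelial genes were higher and 2 lower. Interferon-stimulated genes were higher in 27 of 34 in PC9 (median 1.92) and lower in 20 of 36 in H1975 (median -0.85), and the change was more positive in HCC827 than in H1975 for 27 of 36. The collagens were higher in 19 of 21 in HCC2935 (median 2.40), with medians of 0.36 in PC9 and 0.68 in H1975. ERK output was lower in 12 of 22 in PC9, 13 of 22 in H1975 and 13 of 20 in HCC2935, and the change was more positive in HCC827 for 7, 11 and 7 genes respectively (9.51%, 14.3% and 13.7% of all genes tested) and more negative for 1 gene, against HCC2935.

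**Figure D4:**
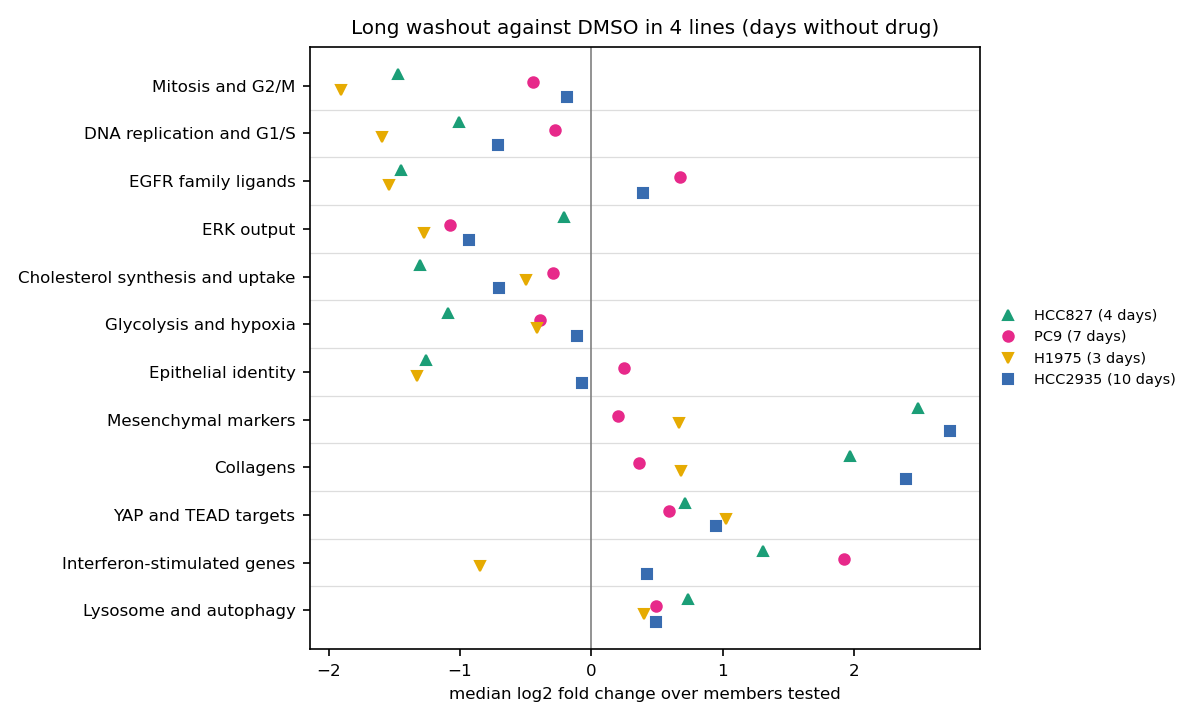
Median log2 fold change of long washout over DMSO of the tested members of 12 gene lists in HCC827, PC9, H1975 and HCC2935. Mitosis is lowest in H1975 (-1.91) and HCC827 (-1.47), interferon-stimulated genes run from -0.85 in H1975 to 1.92 in PC9, and mesenchymal markers are highest in HCC2935 (2.73) and HCC827 (2.49).

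Some changes were common to the 4 lines. Of 12589 genes tested in all of them, 628 were called in the same direction, 318 higher and 310 lower. The 8 with the largest change in the line where they changed least were IGFBP5, PSG5, PSG8, SERPING1, KCNK15, SUSD2, PLA2R1 and MAP2, all of them higher and chosen for that. IGFBP5 rose by 9.60 in HCC827, 3.46 in PC9, 4.50 in H1975 and 7.51 in HCC2935. SERPING1, the C1 inhibitor of complement, rose by 4.18, 5.59, 4.46 and 3.42 in the same order. MAP2, a microtubule-associated protein, rose by 3.79 (4.42 without HCC827 DMSO replicate 1), 3.18, 3.10 and 2.47, and PLA2R1, a phospholipase A2 receptor, by 2.53, 3.68, 2.81 and 3.68. PSG5 and PSG8 belong to a family of near-identical pregnancy glycoproteins, and how shared reads were divided between them is open to error.

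Of 13842 genes tested against all 3 other lines, 523 were called in HCC827 and differed with the same sign from each of them. The change was more positive in HCC827 in 348 and more negative in 175. The 3 differences share the same HCC827 libraries, in which the genes also had to be called, so that a like sign is partly built in. The 8 of these genes with the largest smallest difference were chosen for that difference, which is therefore a description. IGFN1 (chromosome 1, 201190825 to 201228952), an immunoglobulin and fibronectin domain protein, was at 3.57, 0.758 and 1.72 CPM in DMSO and at 383, 384 and 87.6 CPM after the washout (7.14, SE 0.69, and 7.80 without DMSO replicate 1). In PC9, on the scale of its own line, it went from between 39.1 and 51.0 CPM to between 2.67 and 8.26 CPM, the other direction. LRP3, an endocytic receptor, rose from 0.311, 0.190 and 0.227 CPM to 8.81, 15.7 and 9.48 CPM in HCC827 (5.51, SE 0.40), while the other lines held it at 17.6 to 49.9 CPM in both arms, on the scale of each line. S100P, a calcium-binding protein, was at 7.6, 1.73 and 2.11 CPM after the washout, against 0.207, 0.190 and 0.136 CPM in DMSO (4.37, SE 0.72, and 3.40 without long washout replicate 1), and at 0.573 CPM on average in the DTPs. DOCK2, a Rac exchange factor, rose by 4.91 (SE 0.65, and 6.08 without DMSO replicate 2) and COLGALT2, a collagen galactosyltransferase, had 1 count in the DMSO libraries, in replicate 2, and 178 after the washout, a ratio of 197 (95% counting interval 34.9 to 7834). CCL20, a chemokine, held 9 counts over the DMSO libraries and 215 after the washout in HCC827, against 199 and 87 in HCC2935 and 4 and 0 in both PC9 and H1975. GRIP2 held 13 counts or fewer in either arm of the other lines, and C1QTNF3.AMACR is a readthrough of neighbouring genes. Both held 0 counts in the HCC827 DMSO libraries, so that the sizes of their fitted changes are not well set.

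**Figure D5:**
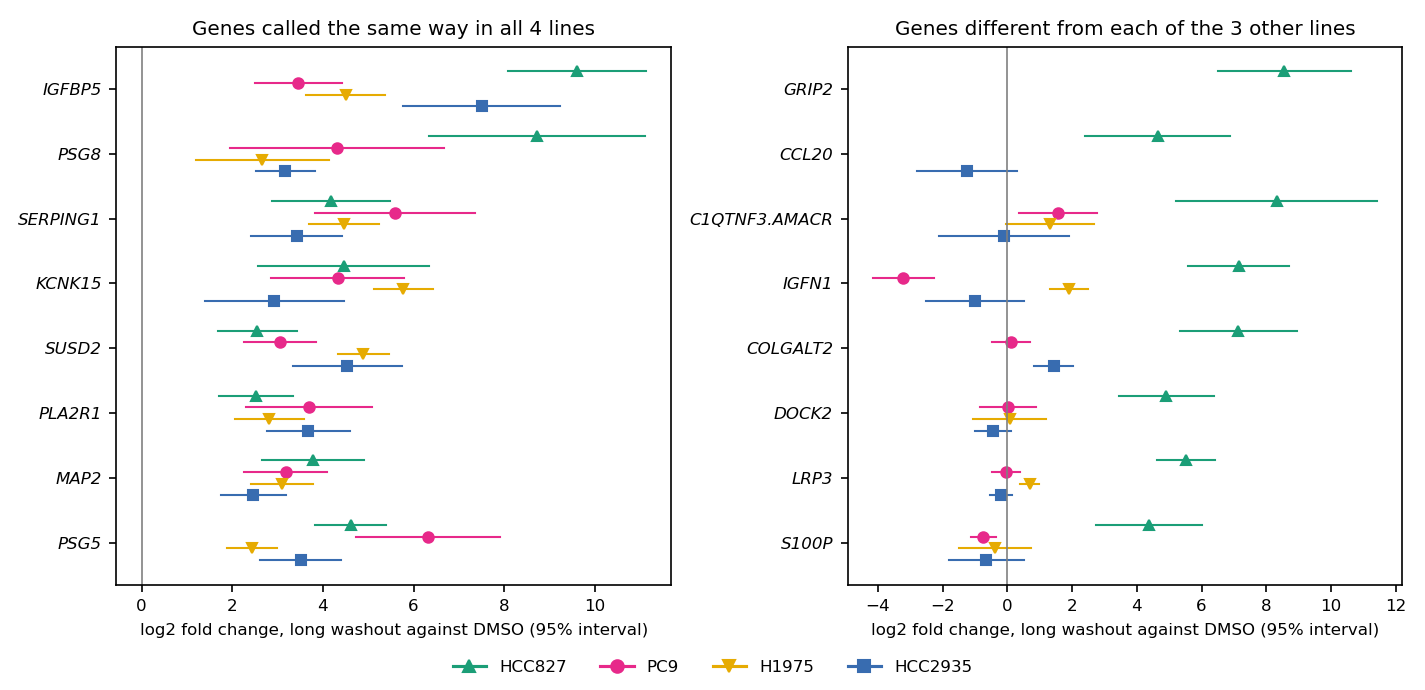
Log2 fold change of long washout over DMSO with its 95% interval in HCC827, PC9, H1975 and HCC2935, for the 8 genes with the largest change common to the lines and the 8 whose change in HCC827 differed most from each other line, with no point where a gene was not tested. The first 8 lie above 0 in every line, and IGFN1 is at 7.14 in HCC827 and -3.22 in PC9.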

How the data were processed

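Libraries were made from poly(A) RNA and read as pairs of 150 bases. The submitters' processing notes name HISAT2 2.1.0, Salmon 0.8.2 and hg38, without roles. The authors deposited estimated counts per gene, which were rounded to whole numbers here, and log2 TPM values with a pseudocount of 0.01, as the lowest deposited value shows. Whether the counting used strand is not given in the sources used here, and gene symbols carry points for hyphens. Per the labels, the growth text of the HCC827 samples names H1975 cells, and the line was taken from the sample titles and the cell line entry.

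Genes were kept with filterByExpr, scaled by TMM and tested on the libraries of each comparison with edgeR 4.0.16 (R 4.3.3), a quasi-likelihood F-test with Benjamini-Hochberg adjustment at 0.05, two-sided. The test was run on simulated counts first, with 100 genes changed by 1 and 100 by 2 on the log2 scale. For long washout against DMSO it recovered 65% and 87% of these, and 8.43% of its calls were false. It recovered 61% and 93% for long washout against DTP, and 57% and 77% for short washout against DTP. For the difference from PC9 it recovered 35% and 68%. Counts of 0 were set against a floor of 3 counts over the DMSO group, and intervals of counts cover counting error only. DESeq2 1.42.0, limma 3.58.1 on log2 TPM and other settings were alternatives.

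Deviations of same-numbered long washout and DMSO libraries from their group means correlated at 0.00059, -0.0685 and -0.134. This gave no sign of pairing by replicate number, but it cannot show that the cultures were unpaired. For short washout and DTP the correlations were 0.677, 0.385 and 0.494, a hint of pairing from the data. The fit with the replicate number as a block is given beside that comparison.

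The genes, lists and tests were chosen with earlier results of these data known. Named genes were those furthest from DMSO with a mean of at least 1 CPM, the leading called members of each of 33 lists, and the genes most common to or different between lines. DUSP6, CCND1, VIM, ZEB1, MKI67 and MET were among those added after their values were seen, and a few genes so chosen are not reported here. Of all 159, 158 were found in GENCODE release 29 by symbol, 81 of which overlap a gene on the opposite strand. Figures were drawn with matplotlib 3.10.9 in Python 3.11.15.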

Additional observations from a re-analysis of the deposited data

Results flagged for a closer look

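The long washout effect differed between HCC827 and each other line by a test of the difference itself, in 2821 genes against PC9, 3628 against H1975 and 4142 against HCC2935. The washouts lasted 4 days in HCC827 and 7, 3 and 10 days in the other lines, so that line and time cannot be told apart. The genes picked for the largest smallest difference of their log2 fold change from another line were GRIP2 (8.2522), C1QTNF3.AMACR (7.2788), CCL20 (5.8980), IGFN1 (5.2458), COLGALT2 (4.9025), DOCK2 (4.8540), LRP3 (4.8353) and S100P (4.7680). These differences are descriptions, since they chose the genes. GRIP2 had 3 and 2 counts in the DMSO and long washout libraries of PC9, against 0 and 134 in HCC827, so that its difference from that line rests on few counts. In HCC827 DMSO, C1QTNF3.AMACR also held 0 counts and COLGALT2 held 1, so that the sizes of these 3 differences rest on the fit. Against the floor of 3 counts, GRIP2 was at least 49.5-fold higher in HCC827. C1QTNF3.AMACR was at least 41.7-fold higher there, and at least 22.5-fold without long washout replicate 2. CCL20 without long washout replicate 3 rose by 3.00 in HCC827 instead of 4.64, and by 5.25 without DMSO replicate 1.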

How the results depend on the processing

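For long washout against DMSO in HCC827, 5491 genes were called, and between 3991 and 5311 when 1 library was left out. The other settings gave between 4657 and 7366 calls, apart from 3366 at an adjusted p under 0.01, and no gene called in both changed sign. Scaling to library size alone moved the share of higher calls from 49.72% to 58.09%. DESeq2 called 5834 genes, 5450 of them shared, and a fit added after the data were seen, with DMSO and the 9 libraries after 21 days, called 5715.

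In the fit with a replicate block 4657 genes passed, and 4581 of these were also called without it. Short washout against DTP had 2 calls with the block and 0 without it, and no other comparison's count moved by over 1.5 times under the block. Of the 159 named genes 5 lost their call under the block: DUSP6 (0.56, adjusted p = 0.0647), ETV5 (adjusted p = 0.0631), CHAC1 (adjusted p = 0.0573), HLA.F (adjusted p = 0.0645) and DNAH6 (adjusted p = 0.0882).

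At an adjusted p under 0.01 the counts were 2828 for DTP, 3564 for acute osimertinib and 2770 for short washout against DMSO, 1310 in PC9, 3396 in HCC2935, and 1354, 1826 and 2266 for HCC827 minus PC9, H1975 and HCC2935. Long washout against DTP had 7 calls with DESeq2. Leaving out 1 library gave 3816 to 4819 calls for DTP, 4192 to 5768 for acute osimertinib, 3725 to 4796 for short washout against DMSO, 0 to 3 for long washout against DTP, 0 for short washout against DTP, 1364 to 5316 in PC9, 6708 to 8966 in H1975, 4306 to 5230 in HCC2935, and 2166 to 3004, 2660 to 3953 and 3343 to 4196 for the differences from PC9, H1975 and HCC2935. MET, at 0.04, ran from -0.0355 without long washout replicate 1 to 0.162 without replicate 2, in neither case past the threshold. Over all settings, 109 values of named genes and 27 of lists lost a call or fell in count, and 1 and 15 gained. The causes were not tested. At a depth of 18.39 M counts or more, 13842 of 19712 genes had enough counts to be tested. Fold bounds without each long washout library were added after the data were seen.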
